A study of Carassius gibelio with 4 samples.

Results

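In the liver of gibel carp, 4344 of 56011 assembled gene IDs passed set limits on level. Of these 4344, 52 stood at least 2-fold lower on a rapeseed meal diet than on a fishmeal diet in both of the strains studied. They were chosen by their own values: a level of 10 or more in both fishmeal libraries, a mean over the 4 libraries under 1000, and a drop of at least 1 on the log2(value + 1) scale in each strain. Of the 4526 IDs at 10 or more in both fishmeal libraries, 4344 had a mean under 1000 and form the level class against which the 52 members are set. The drops of the members are therefore a description, with no test.

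Gibel carp (Carassius gibelio) is a polyploid cyprinid that can reproduce by gynogenesis. Rapeseed meal is a plant protein source used in place of fishmeal in carp feeds, and it carries glucosinolates, phytate and fibre that fishmeal lacks. The liver is the main site where a fish handles absorbed amino acids, lipids and foreign compounds, and its transcripts are a common readout of a change of protein source.

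The groups were strain A on the fishmeal diet, strain A on the rapeseed meal diet, strain F on the fishmeal diet and strain F on the rapeseed meal diet, with 1 liver library each, taken 8 hours after the last feeding. The labels give neither age nor number of fish per library, so no difference has a replicate check. The IDs are assembly names such as c34074_g1. The files hold no gene names beside them, and 0 of them matched the reference gene table. No gene function is given, and the liver label was not checked against marker genes.

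Levels were read as FPKM, the sequenced fragments scaled to transcript length and to library size, a unit that labels and headers do not state. They are on the scale the authors deposited, in which each library carries a factor of its own, 0.705 to 1.34. Of all IDs, 44906 to 47839 were above 0 in the 3 deep libraries, and 19015 in the strain F fishmeal library. Depth was estimated from the lowest values with these library factors divided out. On that scale 1 read in strain F on fishmeal was worth 54.4 times 1 read in the others. Every strain F fold below therefore carries the counting error of that library.

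In strain A, 157 IDs of the level class were at least 2-fold lower on rapeseed (3.61%), and in strain F 243 were (5.59%). The overlap of these lists is the 52 members, 1.2% of the level class, 33.1% of the strain A list and 21.4% of the strain F list. Independent lists of those sizes would share 8.78 IDs, so the overlap was 5.92 times as large. Each strain has its own pair of libraries, but the fishmeal minimum and the folds use the same fishmeal values. The count and its ratio describe these 4 libraries and were given no p-value.

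The scale and the level limits set the size of the overlap. With the library factors divided out and the level limits applied again, 4929 IDs passed those limits. Of these, 491 were lower in strain A, 745 in strain F and 184 in both (3.73%). Independent lists would share 74.2, a ratio of 2.48. All 52 members were among those 184, which the factors fixed in advance for the fishmeal minimum and the fold limits. Dividing them out raised both fishmeal levels and lowered both rapeseed levels of every ID. The split into higher and lower turned with the scale, between sets that are not the same IDs. In strain A it went from 182 higher and 157 lower of 4344 to 90 and 491 of 4929. In strain F it went from 564 and 243 to 149 and 745. With a mean of 1 or more in place of the fishmeal minimum, 327 met the fold limits, and independent lists would share 382. Over that wider set the overlap was below that of independent lists. Of all 35517 IDs with a mean of 1 or more, 46.8% were listed at 0 in strain F on fishmeal. Such IDs cannot be lower in strain F, so that ratio is not like those under the fishmeal minimum.

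Members were more frequent among the larger drops. Of the 41 IDs of the level class that were at least 4-fold lower in strain A, 23 were members (56.1%), against 29 of the 116 with a smaller drop. Of the 44 IDs at least 4-fold lower in strain F, 21 were members (47.7%), against 31 of 199 (15.6%). Among the 157 IDs lower in strain A, 62 others also stood lower in strain F by less than 2-fold, 40 stood higher by less than 2-fold and 3 stood at least 2-fold higher. In all, 72.6% of the 157 were lower in strain F at any size, where 33.8% of the level class were. Among the 243 lower in strain F, 72.4% were lower in strain A at any size, where 47.2% of the level class were. Both shares count the 52 members, which are lower in both strains by the rule. Of the others among the 243, 124 stood lower in strain A by less than 2-fold, 61 higher by less than 2-fold and 6 at least 2-fold higher.

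**Figure D1:**
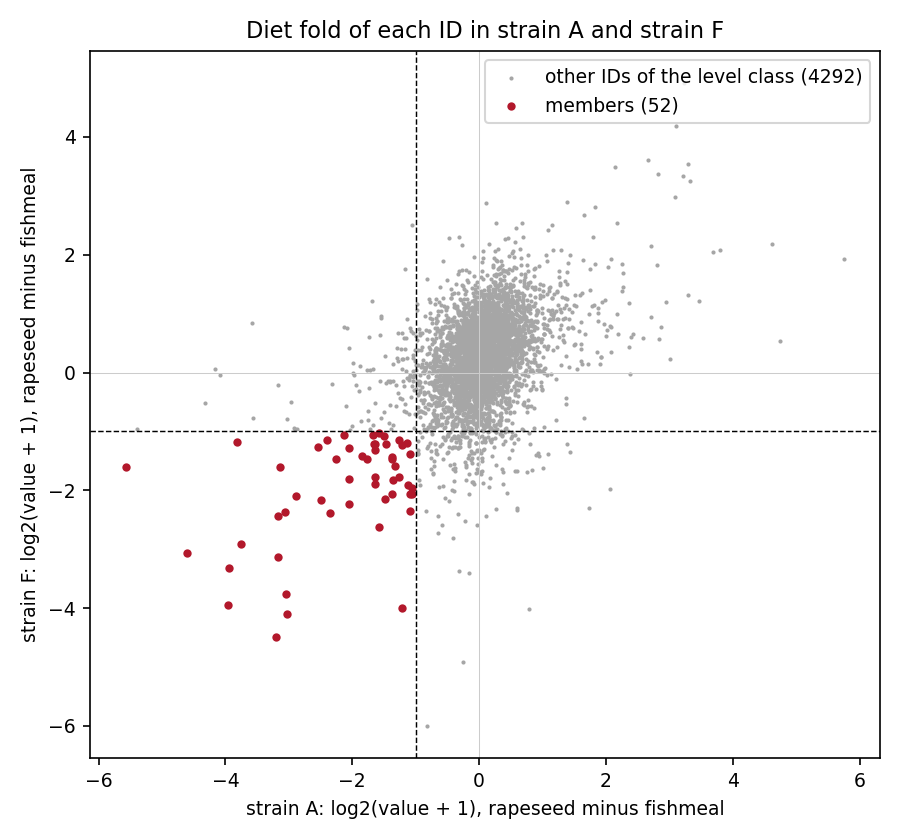
Difference of log2(value + 1) between rapeseed and fishmeal in strain A (horizontal) and strain F (vertical) for the 4344 IDs of the level class, 1 point per ID, with dashed lines at a 2-fold drop. The 52 members, in red, fill the lower left corner down to -5.56 in strain A and -4.49 in strain F.

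The overlap was present at every fishmeal level. Where the smaller of the fishmeal values was 10 to 20, 34 of 2026 IDs were lower in both, against 5.73 for independent lists. At 20 to 50 there were 8 of 1339, against 2.18, and at 50 to 100 there were 5 of 500, against 0.506. At 100 or more there were 5 of 479, against 0.322. Summed over these classes, independent lists would share 8.73, close to the 8.78 without classes. The share lower in strain F declined from 7.85% in the lowest class to 2.30% in the highest, while the share lower in strain A ranged from 2.92 to 4.60% with no order.

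**Figure D2:**
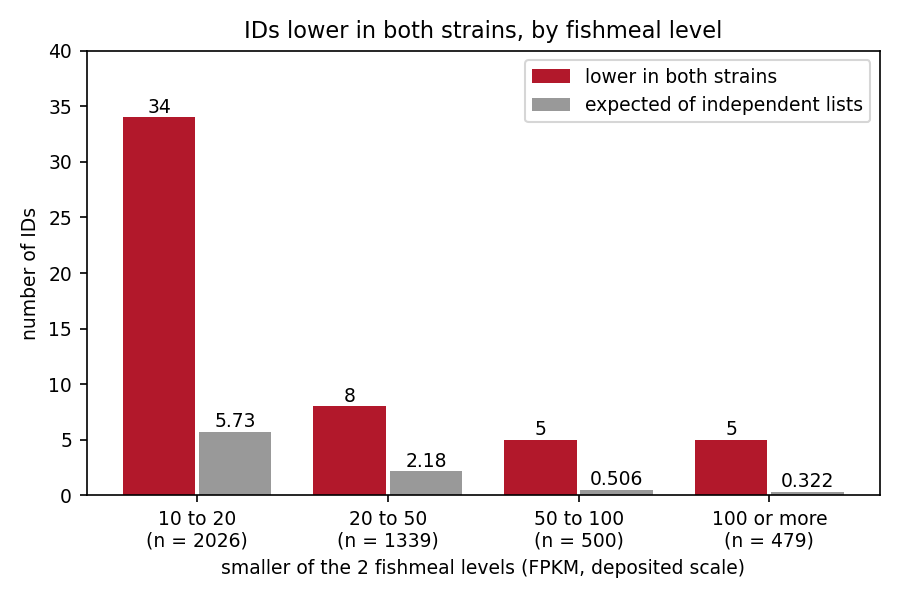
Number of IDs lower in both strains (red bars) and number that independent lists would share (grey bars), by the smaller of the fishmeal levels in FPKM. The red bar is the taller one in each class, from 34 against 5.73 at 10 to 20 FPKM to 5 against 0.322 at 100 FPKM or more.

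The mean level of the members over the 4 libraries had a median of 14.4 FPKM and a range of 7.17 to 584, and includes the rapeseed values that the rule holds low. In strain A the members stood at 10.7 to 1214 FPKM on fishmeal (median 19.5) and at 0.147 to 291 FPKM on rapeseed (median 4.83). In strain F they stood at 10.8 to 677 FPKM on fishmeal (median 27.0) and at 0.888 to 306 FPKM on rapeseed (median 5.71). The medians of the level class on fishmeal were 29.2 FPKM (strain A) and 25.6 FPKM (strain F), so the median member stood below the class in strain A and slightly above it in strain F. Also on fishmeal, strain A had 27 of the 52 under 20 FPKM and strain F had 22, with 15 in common. At the upper end, 5 members were at 100 FPKM or more in both fishmeal libraries.

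The members' median drops were close in the strains, which the rule sets in part, as it requires a drop of at least 1 in each. For the members, strain A had a median log2 fold of -1.67 (range -5.56 to -1.06) and strain F one of -1.79 (range -4.49 to -1.03), beside 0.03 and 0.28 over the level class. The median member kept 26.3% of its fishmeal level in strain A and 26.6% in strain F. At least 4-fold drops were seen in 23 members in strain A, in 21 in strain F and in 14 in both, and 7 were at least 8-fold lower in both. On the deposited scale the drop was larger in strain A in 28 of the 52. In 40 the log2 folds of the strains lay within 1 of each other, and in 23 within 0.5. With the library factors divided out, which lower every fold by up to 0.43 in strain A and 0.60 in strain F, the medians were -2.04 and -2.38. Some of the 28 then had the larger drop in strain F, among them c34074_g1 and c30627_g1.

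**Figure D3:**
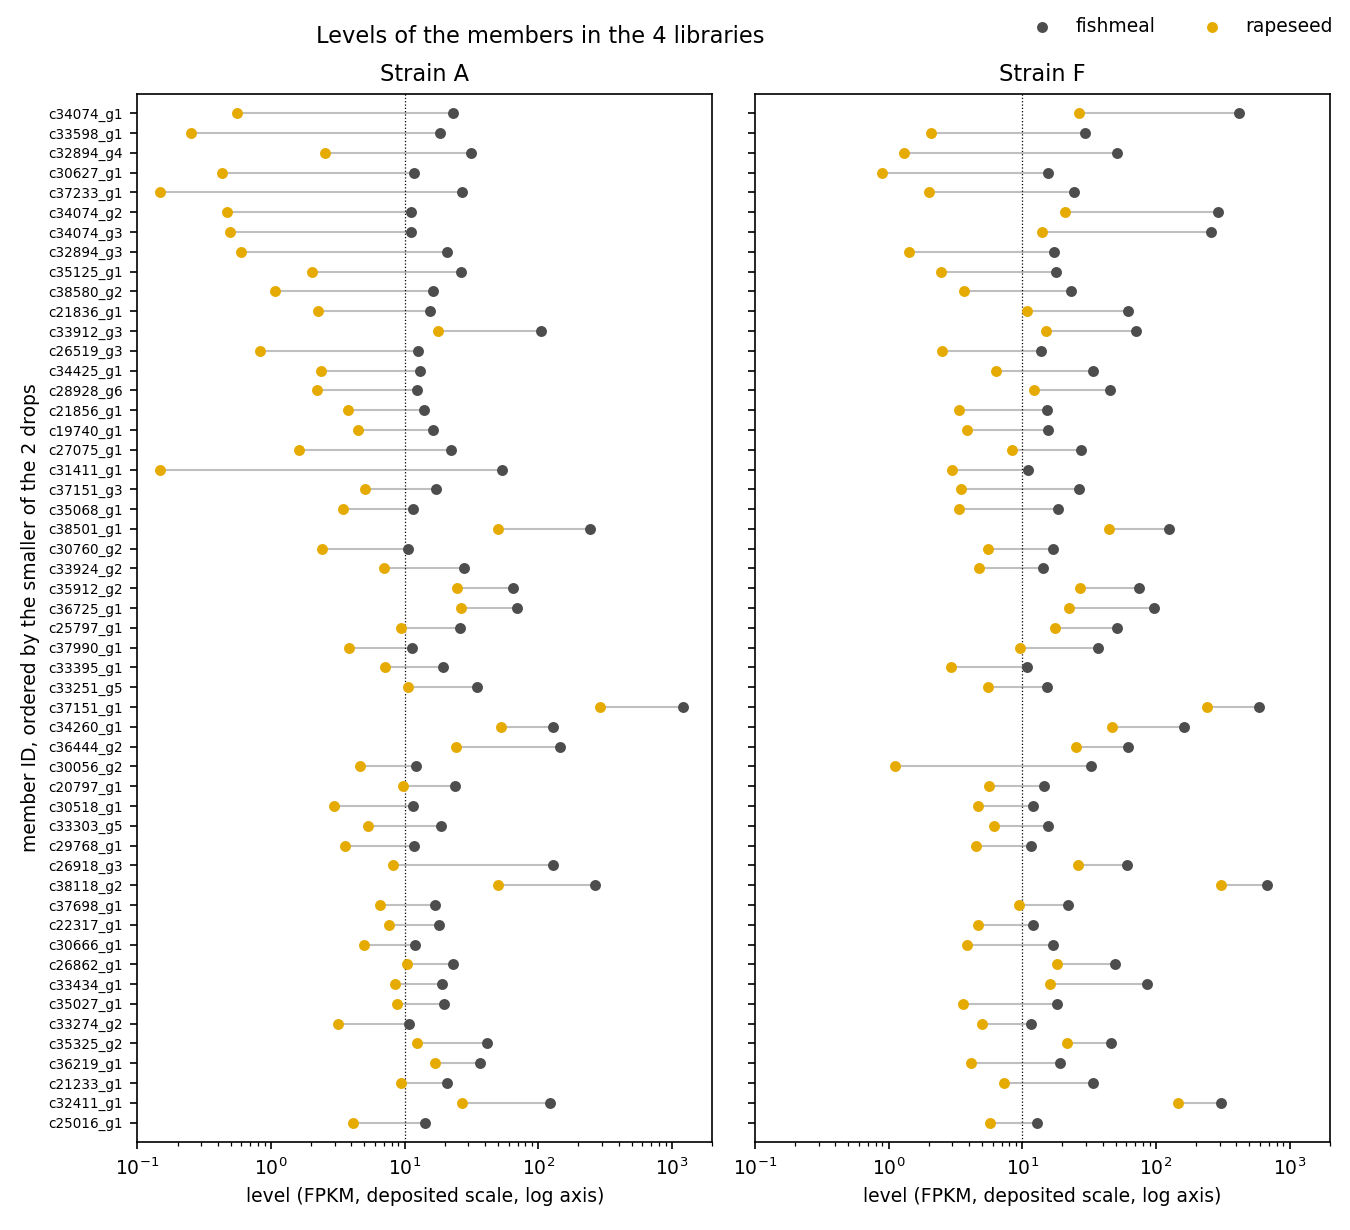
Level of each of the 52 members on fishmeal (dark points) and rapeseed (yellow points) in strain A and strain F, in FPKM on a log axis, with a dotted line at the fishmeal minimum of 10. Every dark point lies to the right of its yellow point by construction, and most fishmeal levels sit between 10 and 100 FPKM.

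The members with the largest drop common to both strains were c34074_g1 and c33598_g1. c34074_g1 had 23.2 FPKM on fishmeal against 0.561 on rapeseed in strain A, and 420 against 26.5 FPKM in strain F. Its log2 folds of -3.95 and -3.94 were nearly equal on the log2(value + 1) scale, where the added 1 exceeds its strain A rapeseed value. As plain ratios its level was 41.3 times lower in strain A and 15.9 times lower in strain F. With the library factors divided out the log2 folds were -4.10 and -4.54. On fishmeal its level in strain F was 18.1 times that in strain A. c33598_g1 had 18.4 FPKM on fishmeal against 0.254 on rapeseed in strain A, and 29.7 against 2.08 FPKM in strain F, with log2 folds of -3.95 and -3.32. Its level in strain F was 1.62 times that in strain A on fishmeal and 8.17 times on rapeseed. The latter is a plain ratio over 0.254 FPKM in strain A, with a log2 difference of 1.29.

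In strain A the lowest folds were those of c31411_g1 and c37233_g1, both at 0.147 FPKM on rapeseed. c31411_g1 had 53.2 FPKM on fishmeal in strain A, a log2 fold of -5.56, and 11.0 FPKM on fishmeal against 2.97 on rapeseed in strain F, a log2 fold of -1.60. c37233_g1 had 27.0 FPKM on fishmeal in strain A, a log2 fold of -4.61, and 24.2 against 2.02 FPKM in strain F, a log2 fold of -3.06. Both were nearer to 0 on rapeseed in strain A than in strain F. In strain F the lowest folds were those of c32894_g4, with 51.1 FPKM on fishmeal against 1.32 on rapeseed (log2 fold -4.49), and c34074_g3, with 258 against 14.1 FPKM (log2 fold -4.10).

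The members with the highest mean level were c37151_g1 and c38118_g2, and both had the larger drop in strain A. c37151_g1 had 1214 FPKM on fishmeal against 291 on rapeseed in strain A, and 589 against 241 FPKM in strain F, with log2 folds of -2.06 and -1.28. c38118_g2 had 268 against 50.1 FPKM in strain A, and 677 against 306 FPKM in strain F, with log2 folds of -2.39 and -1.14. Among the 5 members at 100 FPKM or more in both fishmeal libraries, c38501_g1 had the largest drop common to both strains. It had 242 against 49.7 FPKM in strain A, and 125 against 44.7 FPKM in strain F, with log2 folds of -2.26 and -1.47. c37151_g1 was the next of these 5.

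No member was listed at 0 on rapeseed in either strain. In the level class 0 IDs were listed at 0 on rapeseed in strain A and 2 in strain F, and those 2 were not lower in strain A by 2-fold. The lack of zeros was thus near that of the whole class and is no trait of the members. On rapeseed strain A had 9 members under 1 FPKM and strain F had 1, which was under 1 FPKM in both. Under 5 FPKM there were 27 in strain A and 23 in strain F, while 13 and 19 stood at 10 FPKM or more. In all, 31 members lay under 10 FPKM on rapeseed in both strains and 11 stayed at 10 FPKM or more in both. Counts under 1, 5 and 10 FPKM were not made over the class. Its rapeseed medians were 29.3 FPKM (strain A) and 29.9 FPKM (strain F).

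How many reads lie behind a strain F fishmeal value is not given in the files. A value in a deep library is worth at least 1 read, which sets a lower limit on the reads in the shallow one if reads were counted whole and the factor of 54.4 holds. By that limit c34074_g1 had at least 26.1 reads on fishmeal in strain F, c34074_g2 at least 21.8, c34074_g3 at least 18.2, c37233_g1 at least 5.74 and c33598_g1 at least 4.08. These 5 were the members with a limit of 3 or more. The limit is the fishmeal value over 54.4 times the lowest deep value, here a rapeseed value, both with the library factors divided out. A high limit therefore goes with a large drop and is no separate support for it. For 44 of the 52 the limit was under 1 read and says nothing.

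The 52 members belonged to 48 assembly components, taking IDs with the same c number as 1 component, and only 3 components held more than 1 member. IDs of 1 component can share sequence and reads, so they are not separate observations. Component c34074 held 3 members, c34074_g1, c34074_g2 and c34074_g3. In strain A, c34074_g2 had 11.1 FPKM on fishmeal against 0.468 on rapeseed, and c34074_g3 11.2 against 0.495 FPKM. In strain F, c34074_g2 had 293 against 20.7 FPKM, so on either diet all 3 IDs stood higher in strain F, and on rapeseed they were low in strain A. The other IDs of that component, c34074_g4 and c34074_g5, were at 1.11 to 5.24 FPKM in the deep libraries, with log2 folds of 0.23 and -0.46 in strain A.

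Component c32894 held c32894_g4, with 31.4 FPKM on fishmeal against 2.53 on rapeseed in strain A, and c32894_g3. The latter had 20.6 against 0.601 FPKM in strain A and 17.2 against 1.42 FPKM in strain F. Component c37151 held c37151_g1 and c37151_g3, the latter with 17.1 against 5.05 FPKM in strain A and 26.5 against 3.47 FPKM in strain F. Of these pairs, c32894_g4 and c37151_g3 had the larger log2 drop in strain F, and their partners had it in strain A.

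Another ID of the same component was in the table for 37 of the 52 members (71.2%), against 49.6% of the level class. Together 33 components held 78 IDs that were not members. Of the 78, 54 were under 10 FPKM in both fishmeal libraries, 5 in strain A alone and 6 in strain F alone. The other 13 were in the level class, where 6 were at least 2-fold lower in strain A only, 1 in strain F only and 6 in neither.

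The component IDs that were not members were also counted by their drops, against all IDs without the members. Any of them that passed the level limits and was lower in both strains would be a member, so their counts are fixed in part by the rule. Of the 59 with a mean of 1 FPKM or more, 19 were at least 2-fold lower in strain A (32.2%) and 2 at least 2-fold higher (3.39%). Over the 35465 other IDs of that level, 7.61% were lower in strain A and 7.99% higher. In strain F 11 of the 59 were lower (18.6%, where 13.7% of the others were) and 22 higher (37.3%, where 40.9% were). Of the 59, 25 were listed at 0 in strain F on fishmeal (42.4%, where 46.9% of the others were). The 5 that were lower in both strains were each under 10 FPKM on fishmeal in at least 1 strain. At a mean of 10 FPKM or more, 7 of 15 were lower in strain A (46.7%, where 3.2% of 6790 were) and 2 in strain F (13.3%, where 11.8% were). Of these 15, 13 were in the level class and could not be lower in both, so strain F counts of those lower in strain A are held down by the rule.

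Among those 15, the largest drops in strain A were in the components of c31411_g1 and c26918_g3. c31411_g2 had 142 FPKM on fishmeal against 2.42 on rapeseed in strain A, and 49.7 against 25.1 FPKM in strain F, so it missed the rule by a strain F log2 fold of -0.96. c26918_g3, a member, had 128 against 8.19 FPKM in strain A, and 60.6 against 26.2 FPKM in strain F. In the same component c26918_g2 had 161 against 7.11 FPKM in strain A, and 55.7 against 38.5 FPKM in strain F. c26918_g1 had 230 against 12.6 FPKM in strain A, and 56.5 against 54.9 FPKM in strain F. In strain A these 4 IDs were 15.7 to 58.7 times lower on rapeseed, and in strain F 1.03 to 2.31 times. The 3 that were not members had to be under 2-fold lower in strain F, since they passed every other limit. They were named after their values were seen.

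**Figure D4:**
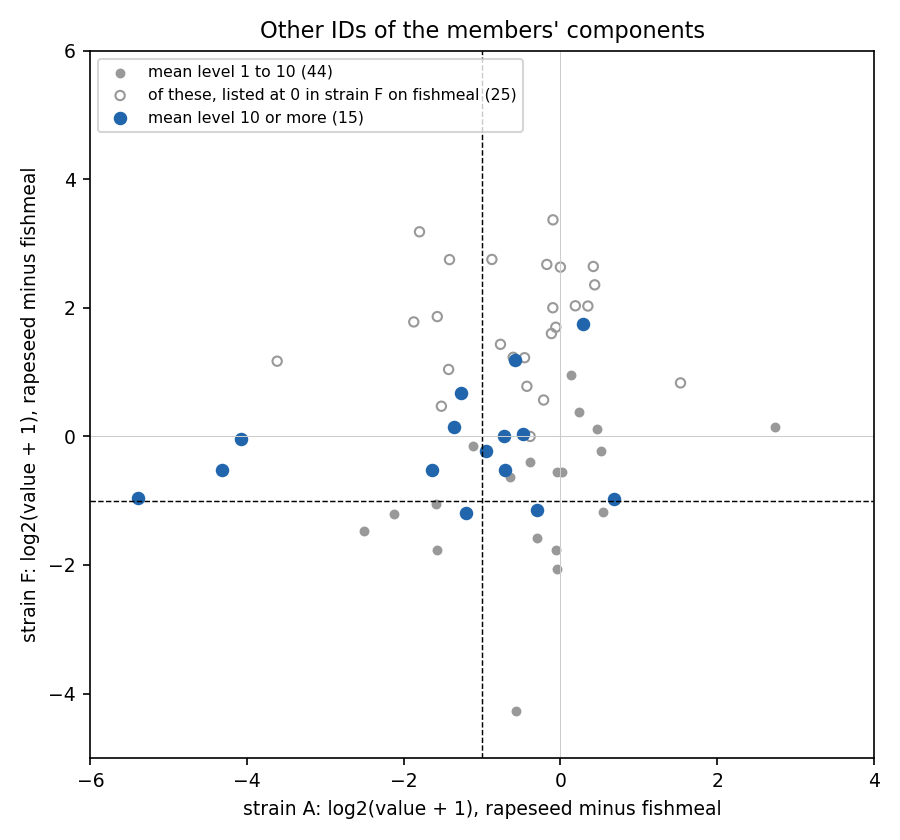
Difference of log2(value + 1) between rapeseed and fishmeal in strain A (horizontal) and strain F (vertical) for the 59 component IDs that were not members and had a mean of 1 FPKM or more, with dashed lines at a 2-fold drop. Blue points have a mean of 10 FPKM or more, and 7 of these 15 lie left of the strain A line. Open circles mark the 25 IDs listed at 0 in strain F on fishmeal.

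Levels also differed between the strains. The rule used all 4 values, so these counts are descriptions, first on the deposited scale. The level class beside them was not matched to the members on level. On rapeseed its medians were 29.3 FPKM (strain A) and 29.9 FPKM (strain F), where those of the members were 4.83 and 5.71 FPKM. In the 2 deep rapeseed libraries strain F exceeded strain A by 2-fold or more in 15 members (28.8%, where 3.29% of the level class did so) and stood as far below it in 4 (7.69%, where 4.33% were). On fishmeal 12 were higher in strain F (23.1%, where 5.27% were) and 5 lower (9.62%, where 12.4% were). The median log2 difference of strain F over strain A was 0.41 on rapeseed and 0.25 on fishmeal, beside 0.00 and -0.23 over the level class. With the library factors divided out, it was 0.58 and 0.74, beside 0.31 and 0.24 over the same level class, so the order of the diets depends on the scale. Then 21 members were higher in strain F on rapeseed (40.4%, where 7.27% of the class were) and 2 lower (3.85%, where 2.26% were). On fishmeal 19 were higher (36.5%, where 13.9% were) and 1 lower (1.92%, where 3.94% were). On the deposited scale and both diets strain F was 2-fold or more above strain A in 9 members, led by the c34074 IDs of 1 component. On both diets 0 were at least 2-fold lower. Neither count was made over the level class, so no share stands beside them. As plain ratios c34074_g2 and c34074_g3 stood 26.4 and 23.1 times higher in strain F on fishmeal, and c34074_g1 47.2 times higher on rapeseed. The last is over 0.561 FPKM in strain A, with a log2 difference of 4.14.

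For 3 members the strain difference on the deposited scale was at least 2-fold in opposite directions on the diets. This count was made neither over the level class nor with the library factors divided out, and it can change with the scale. c31411_g1 was higher in strain A on fishmeal and 20.2 times higher in strain F on rapeseed. That is a plain ratio over 0.147 FPKM in strain A, with a log2 difference of 1.79. With the factors divided out its log2 differences were -1.71 on fishmeal and 1.77 on rapeseed. On the deposited scale c26918_g3 had the same order as c31411_g1. c30056_g2, named after its values were seen, went the other way. On fishmeal it had 12.2 FPKM in strain A against 32.8 in strain F, and on rapeseed 4.68 against 1.11 FPKM.

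**Figure D5:**
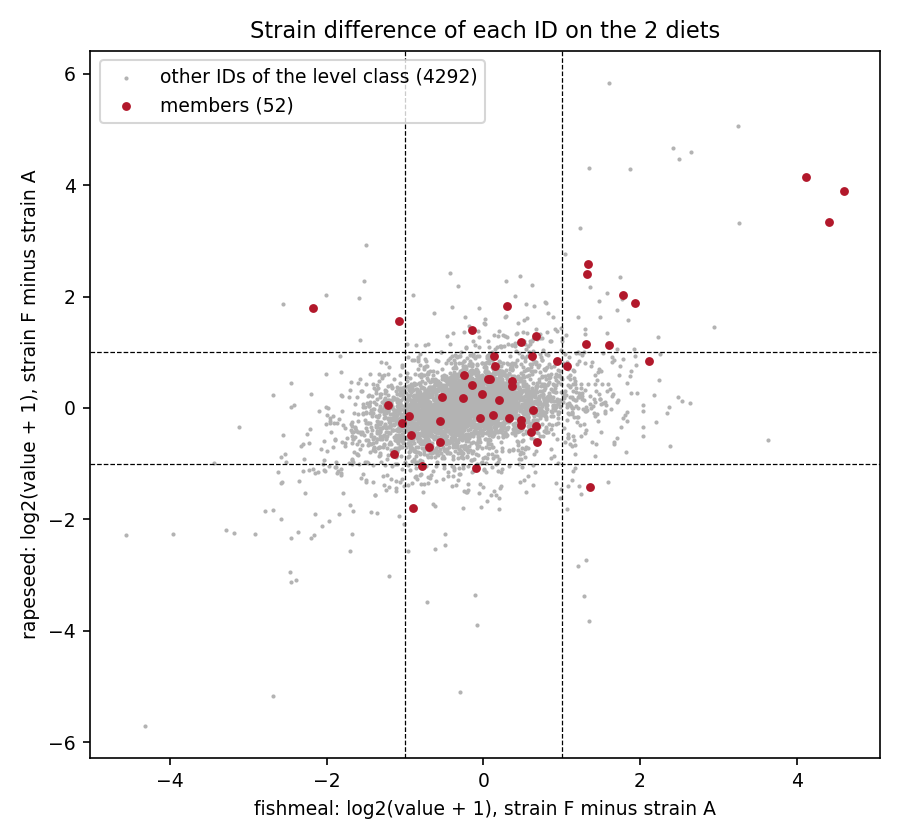
Difference of log2(value + 1) between strain F and strain A on fishmeal (horizontal) and on rapeseed (vertical) for the 4344 IDs of the level class, with dashed lines at 2-fold. Of the 52 members, in red, 9 lie beyond both lines on the upper right, with the 3 c34074 IDs farthest out. On the lower left 0 members lie beyond both, and the other IDs were not counted by corner.

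The thresholds cut through a continuous range. The smallest drops inside the rule were -1.06 (strain A) and -1.03 (strain F), and the nearest IDs outside had -0.97 and -0.98. For fishmeal levels, the lowest inside were 10.7 FPKM (strain A) and 10.8 FPKM (strain F), and the highest outside was 9.90 and 8.51. The minimum in strain A left out 189 IDs that met every other limit, and the minimum in strain F left out 9. The upper limit on the mean left out none, and the highest mean inside was 584 FPKM. In 32 of the 52 members the smaller of the drops was under 1.5 on the log2 scale.

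The mirrored rule, with 10 or more in both rapeseed libraries and at least 2-fold higher levels on rapeseed in both strains, held for 227 of 5289 IDs (4.29%). Independent lists would share 103, a ratio of 2.20. Of these 227, 57 were listed at 0 on fishmeal in strain F and 2 in strain A, where no member of the lower set was at 0 on rapeseed. Of all 56011 IDs, 36996 were at 0 in strain F on fishmeal. On rapeseed 11105 were at 0 in strain A and 8172 in strain F. Zeros under the 2 rules thus fall in libraries of unlike depth and cannot be compared as traits of the IDs. They were not counted over the 5289. The ratios of the 2 rules were not tested against each other. The filter of each rule falls on different libraries, and the shallow one is in the denominator of the strain F fold in both.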

How the data were processed

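Liver RNA of 4 gibel carp groups was sequenced, 1 library per group. Per the labels' protocols, RNA was taken with Trizol from frozen liver and libraries followed Illumina's protocols. The submitters' processing notes list RSEM 1.2.17 and Bowtie 1.0.1 with no role for either. The sources used here do not name the reference for alignment. The deposited values were read as FPKM from the values themselves: in every library 100% of the values under 3 were whole multiples of 1 step, to within 0.0006, as for numbers of 2 decimals multiplied by a library factor. That step does not by itself tell FPKM from another unit kept to 2 decimals. Absolute depth is unknown. Relative depth was read with the library factors divided out, from 2479 IDs at 1 to 3 times their lowest deep value. Of these, 192 were above 0 in strain F on fishmeal. The largest cluster held 83, with 25 near its value divided by 2 and 11 divided by 3.

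Folds were differences of log2(value + 1), which understate the change of low IDs. With 1 library per group no test was run. Independent lists share the product of their shares times the IDs in the level class. Named IDs were, by rule, the 2 largest common drops, the 2 largest per strain, the 2 highest means, the 2 largest common drops at 100 or more on fishmeal, and members of components with several. The members, rule and lists were chosen with earlier results of these data known. The steps were tested on simulated data. Python 3.11.15, numpy 2.4.6, pandas 2.3.3 and matplotlib 3.10.9 were used.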

Additional observations from a re-analysis of the deposited data

Results flagged for a closer look

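Among the members named by rule, 5 had strain differences of opposite sign on the diets on the deposited scale. Each value rests on 1 library, and none of these differences was tested. Taking the log2 difference of strain F over strain A, its rapeseed value less its fishmeal value was 3.96 for c31411_g1, 1.55 for c37233_g1, 0.85 for c32894_g3, -1.29 for c32894_g4 and -1.04 for c37151_g3. For c31411_g1 the strain difference was at least 2-fold on each diet, -2.17 on fishmeal and 1.79 on rapeseed. For the other 4 it was under 2-fold on fishmeal, from -0.25 to 0.68. On rapeseed it was 1.40 for c37233_g1 and under 2-fold for the rest, from -0.61 to 0.60. With the library factors divided out, c37233_g1 and c32894_g3 stood higher in strain F on either diet, and so lost the opposite sign. On that scale c37151_g1 (-0.55 on fishmeal, 0.052 on rapeseed) and c38501_g1 (-0.45 and 0.16) gained it, so the list depends on the scale. Each of the 5 includes the shallow strain F fishmeal library.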

How the results depend on the processing

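No paired analysis was possible because each group had 1 library and the labels give no replicate numbers, and leaving out replicates could not be run. The counts below are, in order, IDs lower in strain A, in strain F, in both, and shared by independent lists, beside 157, 243, 52 and 8.78. They are out of 4344 IDs unless another number is given, so part of a change in counts can be the number of IDs. A pseudocount of 10 gave 77, 112, 21 and 1.99. Dividing out the library factors gave 491, 745, 184 and 74.2 of 4929 IDs. Centring each diet pair on its median fold (shifts of 0.03 and 0.28) gave 165, 429, 69 and 16.3. A fishmeal minimum of 5 gave 291, 631, 104 and 24.7 of 7449 IDs. One of 20 gave 84, 84, 18 and 3.04 of 2318, and one of 100 gave 14, 11, 5 and 0.322 of 479. In place of that minimum, a mean of 10 gave 258, 840, 107 and 32.6 of 6648 IDs. A mean of 1 gave 2751, 4906, 327 and 382 of 35334. With the minimum changed or replaced by a mean, the share lower in both was 0.78% to 1.61%. A fold of 1.5 gave 437, 526, 146 and 52.9, and a fold of 4 gave 41, 44, 14 and 0.415. The observed overlap exceeded that of independent lists under each of these settings other than the mean of 1. That setting takes in many IDs listed at 0 in strain F on fishmeal, which cannot be lower there. A pseudocount of 0.1 and no upper limit (4526 IDs) kept all 4 counts within 1.5 times.

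Strain A alone, without the strain F fishmeal minimum and fold limit, had 360 lower IDs of 6377 at 10 or more on fishmeal (5.65%). In the level class it had 157 of 4344 (3.61%). A limit of at least 3 reads in strain F on fishmeal, chosen after seeing the data, left 5 members. Raising the mean of the component IDs from 1 to 10 took those lower in strain A from 19 to 7, in strain F from 11 to 2 and in both from 5 to 1, with fewer IDs counted. With the factors divided out, also chosen after seeing the data, the members' median strain difference was 0.74 on fishmeal and 0.58 on rapeseed. Among the named IDs, the strain difference then turned positive on fishmeal for c37233_g1 (0.33) and c32894_g3 (0.22), and on rapeseed for c37151_g1 (0.052) and c38501_g1 (0.16). The diet fold of no named ID changed direction under a pseudocount, factor or centring alternative, and none could. A pseudocount keeps the sign of a fold, and the factor and centring alternatives lower every fold. The unknown number of reads behind strain F fishmeal values limits every strain F fold.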
